A study of Mus musculus with 6 samples.

Results

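Mesenchymal cells of the dorsal pancreatic bud at embryonic day (E) 12.5 were compared between Pbx mutant and control mouse embryos by RNA sequencing. The comparison used the libraries labelled as mesenchyme at that stage, which were 2 of the 6 libraries of the study (1 mutant and 1 control). It covered the 11188 genes, of 24062 in each table, that reached 5 CPM (counts scaled to library size) in at least 1 of those 2 libraries. The other libraries held epithelial cells of the same buds at E12.5 and E14.5, with 1 library for each stage and genotype.

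The mutant embryos carried 1 copy of the mTmG reporter (mTmG+/-), 1 copy of Nkx2.5-Cre (Nkx2.5-Cre+/-) and 1 mutant copy of Pbx2 (Pbx2+/-), among other alleles. The control is labelled mTmG alone, with no Cre named. Both groups thus carried the reporter, whose cells are red with Tomato and turn green with GFP once Cre has acted. The Cre is placed by its name under the control of Nkx2-5, so Cre action is limited to cells that have used that gene. Buds were dissociated, cells were sorted on Tomato and GFP fluorescence, and fractions kept frozen were combined for RNA extraction, per the labels' protocols. The number of embryos in a pool, and how GFP cells were obtained from embryos with no named Cre, were details not given in the sources used here.

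Pbx proteins are homeodomain proteins of the TALE class, which bind DNA together with Hox proteins and with the related Meis and Pknox proteins. Pancreatic mesenchyme is a splanchnic tissue around the dorsal bud, and it also contains the precursors of the spleen, for which Tlx1 and Nkx2-5 are known to be needed. Its cells signal to the epithelium through secreted factors of the FGF, Wnt, retinoic acid and BMP families, and they build the matrix on which the bud branches.

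Each group was a single pool, so no difference can be set against a spread between replicates, and no test was possible. Sizes are given as the ratio of the 2 libraries, with an exact 95% interval (Clopper-Pearson, from the conditional binomial distribution) in parentheses after each fold. Reads carry no molecular identifiers, so these intervals cover counting error only. A gene was called higher or lower in the mutant at a ratio of 2-fold or more with an interval that left out 1. The mutant library held 15593756 counts on genes and the control library 14829378, within the range of 14032569 to 20276045 over all 6 libraries. The spread of ratios exceeded counting error at every level. Among genes with a mean of 100 CPM or more, the log2 ratios had an SD of 0.30 against 0.04 from counting alone, and 1.09% of those genes were called. Below 10 CPM the SD was 1.04 against 0.24, and 25.7% were called, so calls at low levels need the most care.

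Pbx2, of which the mutant embryos carried 1 mutant copy, had a log2 ratio of -0.68, short of the 2-fold rule. Pbx3 stood at 117 and 112 CPM in control and mutant. The partner gene Meis1 stood at 556 and 597 CPM, Meis2 at 228 and 349 CPM (log2 ratio 0.61), Pknox1 at 98.3 and 106 CPM and Pknox2 at 94.5 and 124 CPM. Nkx2-5, whose locus drives the Cre, stood at 41.2 and 66.8 CPM in the mesenchyme libraries (log2 ratio 0.69).

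Over all measured genes the 2 libraries were close: the median log2 ratio was -0.01 and 84.9% of genes differed by less than 1.5-fold. In the mutant, 219 genes were called higher (1.96% of the 11188 measured), 392 were called lower (3.5%) and 10577 were neither. These shares are the background against which the counts for each gene group below should be read. Genes just inside the rule included Nkx2-3 (2.02-fold higher) and Gpr124 (2.01-fold lower), and Prrx1, at 1.97-fold lower, fell just outside it. A scale on which each ratio was taken relative to genes of like transcript length was chosen after seeing the data. It put 10 of the 166 called genes picked by the naming rule (given with the processing) under 2-fold. These were Crabp1, Fgf9, Fgfr3, Mrc1, Nkx2-3, Pdgfa, Sema5a, Snhg8, Spry2 and Tgfb3.

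**Figure D1:**
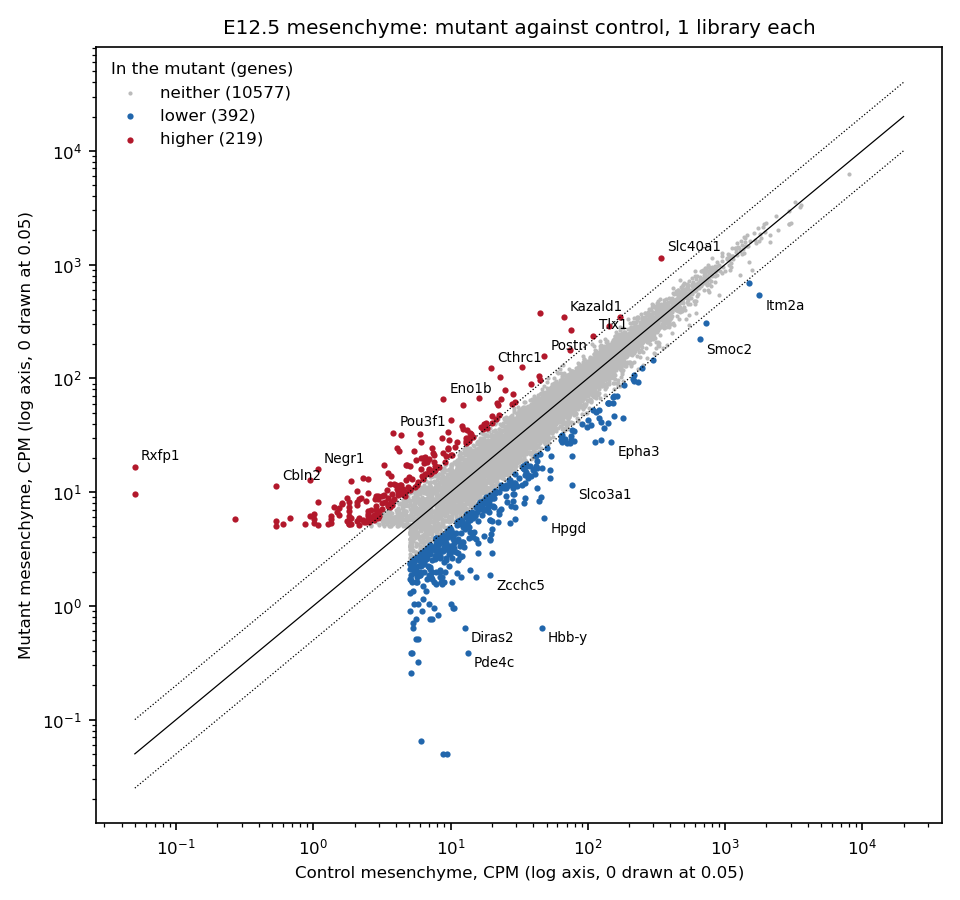
Level of each measured gene in control (x axis) and mutant mesenchyme (y axis), in CPM on log axes, with 1 library per group. The solid line marks equal levels and the dotted lines 2-fold; most genes lie between the dotted lines, and the 219 higher and 392 lower genes lie outside them, many at low levels.

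The mesenchymal identity of both pools was checked against 13 defining genes, all of which were measured in both. Vimentin (Vim) stood at 610 CPM (control) and 742 CPM (mutant). The platelet-derived growth factor receptors Pdgfra and Pdgfrb stood at 181 and 152 CPM and at 301 and 221 CPM. Of the fibrillar collagen genes, Col1a2 stood at 1393 and 1574 CPM, Col1a1 at 2930 and 2290 CPM and Col3a1 at 3041 and 2310 CPM. Prrx1, a homeobox gene of limb and body wall mesenchyme, was at 97.5 and 49.4 CPM. The stomach and spleen mesenchyme factor Barx1 stood at 615 and 378 CPM (log2 ratio -0.70) and Nkx3-2, which acts in the splenopancreatic mesenchyme, at 153 and 104 CPM (-0.55). Of the 13, Tlx1 was the only one called.

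Leukocyte, erythroid and epithelial markers were low in both pools, while endothelial, mesothelial, and smooth muscle and pericyte lists summed higher. The lists moved in different directions. Leukocyte genes summed to 149 and 85.7 CPM in control and mutant over 26 genes, with S100a9 and Mpo at 0 in both, and 6 of 8 measured were lower. Erythroid genes summed to 68.9 and 6.75 CPM over 15 genes, with Gata1 at 0 in both. Endothelial genes summed to 469 and 445 CPM over 28 genes, of which 10 had no read in the control and 5 none in the mutant. The highest single gene in each library gave 308 and 225 CPM of those sums. The defining endothelial genes Cdh5 and Tie1 had no read in the control, and 3 of 7 measured were higher (Plvap 3.66-fold, Fli1 2.84-fold, Pecam1 2.57-fold). Epithelial genes summed to 156 and 175 CPM over 30 genes, with Pdx1 at 0 in the control and Ptf1a and Nkx6-1 at 0 in the mutant. Smooth muscle and pericyte genes summed to 1309 and 902 CPM over 19 genes, none at 0, and 5 of 15 measured were lower. The highest gene on that list was Pdgfrb, which is also among the mesenchymal genes given above. Mesothelial genes summed to 665 and 479 CPM over 14 genes, with 3 of 11 measured lower. The highest single mesothelial gene in each library gave 360 and 277 CPM of those sums. In sorted pools, fewer cells of a type and less RNA per cell cannot be told apart. The part of these cells in the differences below was not tested, except that leaving their marker genes out gave 212 genes higher and 372 lower.

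Of 20 measured transcription factor genes of splanchnic and splenic mesenchyme, 2 were called higher and none lower, and their median log2 ratio was 0.21, against -0.01 over all genes. Tlx1, the homeobox gene needed to form the spleen, stood at 109 CPM (control) and 237 CPM (mutant), 2.18-fold higher (2.06 to 2.32). Nkx2-3, a homeobox gene of spleen and gut mesenchyme, stood at 170 and 344 CPM, 2.02-fold higher (1.92 to 2.12). The bHLH factor gene Tcf21 was at 335 and 495 CPM (log2 ratio 0.56), Hand2 at 174 and 215 CPM, and the orphan nuclear receptor gene Nr2f2 at 463 and 538 CPM. Isl1, a LIM homeobox gene of the dorsal pancreatic mesenchyme, stood at 146 and 152 CPM. Thus the spleen-associated genes split, with Tlx1 and Nkx2-3 above the control and Barx1 and Nkx3-2 below it.

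Promoter sequence was searched for the letters that Pbx proteins bind with a Hox partner (TGATTNAT) or a Meis partner (TGATTGAC), on both strands, in windows from 250 bases before to 50 bases after each start site (RefSeq, GRCm38.p6). The first motif was in 1.26% of the 10977 windows of measured genes and in 3.22% of all 32851 windows. It was in 4 of 198 windows of genes called higher (2.02%) and in 7 of 368 windows of genes called lower (1.90%). The second was in 0.92% of the windows of measured genes, in 1 of 198 windows of higher genes (0.505%) and in 3 of 368 windows of lower genes (0.815%). The promoters of Tlx1 (chr19:45150465-45150764, plus strand) and Diras2 (chr13:52530787-52531086, minus strand) are shown because each gene moved with the mutant, in opposite directions, and each window holds 1 match of the first motif, in capitals. The match begins 44 bases before the start site in Tlx1 and 112 bases before it in Diras2.
Tlx1: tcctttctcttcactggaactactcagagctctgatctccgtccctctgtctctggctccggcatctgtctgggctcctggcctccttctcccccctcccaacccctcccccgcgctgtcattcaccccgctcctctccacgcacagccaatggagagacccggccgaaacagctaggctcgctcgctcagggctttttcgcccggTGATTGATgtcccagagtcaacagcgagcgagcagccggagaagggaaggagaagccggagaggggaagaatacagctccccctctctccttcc
Diras2: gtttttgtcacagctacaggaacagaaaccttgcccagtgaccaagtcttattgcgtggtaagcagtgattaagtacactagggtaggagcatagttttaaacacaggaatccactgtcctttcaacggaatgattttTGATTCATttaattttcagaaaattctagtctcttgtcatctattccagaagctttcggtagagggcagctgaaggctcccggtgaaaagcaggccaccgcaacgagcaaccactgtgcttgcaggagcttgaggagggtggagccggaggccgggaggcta
Diras2 encodes a small GTPase of the Ras family. It stood at 12.7 CPM (control) and 0.643 CPM (mutant), 19.7-fold lower (10.5 to 41.8). A match describes the letters only and does not show that a Pbx protein binds there.

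Other transcription factor families had few called members, and more of these were lower than higher. Of 23 measured Iroquois, LIM and other homeobox genes, 1 was called higher and 4 lower (median log2 ratio 0.06). The LIM-only gene Lmo1 stood at 3.49 and 14.6 CPM in control and mutant, 4.19-fold higher (3.08 to 5.77). Zeb1, a repressor known for its part in epithelial-mesenchymal transition, stood at 114 and 50.3 CPM, 2.27-fold lower (2.09 to 2.48), while its relative Zeb2 was at 224 and 198 CPM. Cux2 stood at 65.3 and 27.4 CPM, 2.38-fold lower (2.13 to 2.68), and the craniofacial and limb gene Alx4 at 11.7 and 3.34 CPM, 3.49-fold lower (2.55 to 4.85). Among 23 measured helix-loop-helix genes, 1 was called higher and 4 lower, and 3 of those 4 were early B-cell factor genes, which act in mesenchymal and adipose precursors. Ebf3 stood at 23.3 and 7.14 CPM, 3.27-fold lower (2.63 to 4.09). Ebf1 was 3.20-fold lower (2.08 to 5.05) and Ebf4 2.26-fold lower (1.88 to 2.73). The somite and sclerotome gene Tcf15 stood at 3.42 and 10.4 CPM, 3.05-fold higher (2.21 to 4.26).

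Of 35 measured zinc finger developmental factors, 1 was called higher and 2 lower (median -0.26). Klf4, a Krüppel-like factor, stood at 27.1 and 5.34 CPM, 5.08-fold lower (4.00 to 6.51). Zfpm1, a cofactor of GATA proteins, was 3.47-fold lower (2.60 to 4.70), and Bcl11b stood at 18.1 and 40.6 CPM, 2.24-fold higher (1.94 to 2.59). T-box genes were the lung and hindlimb gene Tbx4, which stood at 12.3 and 3.67 CPM and was 3.35-fold lower (2.47 to 4.59), and 3 others that were not called, among them Tbx2 at 487 and 468 CPM and Tbx3 at 202 and 182 CPM. Among 12 forkhead genes, Foxc1, a gene of paraxial and kidney mesenchyme, stood at 1.34 and 5.85 CPM, 4.36-fold higher (2.67 to 7.48), and none was lower (median -0.32). Outside these families, the POU factor gene Pou3f1, stood at 3.82 and 33.3 CPM, 8.71-fold higher (6.62 to 11.7). The retinoid-related receptor gene Rora was the only one of 21 nuclear receptor genes called (9.99 and 4.50 CPM, 2.22-fold lower, 1.66 to 2.99).

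Wnt pathway genes differed in both directions, with the largest differences among secreted modulators. R-spondins are secreted proteins that strengthen Wnt signals, Frizzled proteins are the receptors, and the Sfrp family, Frzb and Wif1 bind Wnt ligands outside the cell. Rspo3 stood at 9.59 CPM (control) and 33.9 CPM (mutant), 3.53-fold higher (2.93 to 4.28), whereas the log2 ratio of Rspo1 was -2.85. The receptor genes Fzd4 and Fzd6 were 2.60-fold (2.04 to 3.35) and 2.05-fold higher (1.42 to 2.98). Sfrp1 stood at 1489.9 and 687 CPM, 2.17-fold lower (2.12 to 2.22), while Frzb, which encodes a related inhibitor, stood at 7.38 and 24.4 CPM, 3.31-fold higher (2.67 to 4.13). Wif1 stood at 1.81 and 8.17 CPM, 4.51-fold higher (2.96 to 7.11). In all, 3 of 23 ligand and receptor genes were called higher and 1 lower (median 0.01), and 2 of 18 inhibitor and target genes were called higher and 1 lower (median -0.14). The ligand gene Wnt5a stood at 197 and 207 CPM, and the Wnt target Lef1 at 91.8 and 80.8 CPM.

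Of 25 measured FGF pathway genes, 5 were called higher and 2 lower (median log2 ratio 0.01). Some, but not all, of the listed feedback inhibitors that FGF signalling is known to induce were called higher. Il17rd, a membrane inhibitor also known as Sef, stood at 9.59 and 23.9 CPM, 2.49-fold higher (2.05 to 3.05), the MAP kinase phosphatase gene Dusp4 at 6.64 and 14.4 CPM, 2.17-fold higher (1.71 to 2.78), and Spry2 at 6.30 and 13.0 CPM, 2.06-fold higher (1.61 to 2.66). The ligand gene Fgf1 stood at 21.6 and 43.6 CPM, 2.02-fold higher (1.77 to 2.31), and Fgf9 at 21.2 and 10.2 CPM, 2.07-fold lower (1.71 to 2.52). Fgf10, the mesenchymal ligand that sustains pancreatic progenitors, stood at 18.4 and 15.6 CPM. Its receptor gene Fgfr2 stood at 155 and 81.4 CPM (log2 ratio -0.93), short of the rule, and Fgfr3 was 2.10-fold lower (1.54 to 2.90).

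BMP and TGF-beta genes had medians below that of all genes and 1 or 2 called members each. Smoc2, which encodes a secreted calcium-binding matrix protein, stood at 652 and 221 CPM, 2.95-fold lower (2.83 to 3.06). Its paralogue Smoc1 went the other way, from 2.95 to 8.62 CPM, 2.92-fold higher (2.06 to 4.2). The other 20 measured BMP and GDF genes were neither (median over the list -0.17). Tgfb3 was the only one of 21 TGF-beta and activin genes called (42.0 and 20.7 CPM, 2.03-fold lower, 1.77 to 2.33), and 16 of the 21 had ratios below 0 (median -0.24). The serine protease gene Htra3, counted with the insulin-like growth factor genes, stood at 125 and 41.5 CPM, 3.01-fold lower (2.75 to 3.29). Igf1 stood at 328 and 191 CPM (log2 ratio -0.77) and was not called.

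Retinoic acid genes included carriers above and a synthesis enzyme below the control. Crabp1, which encodes a cellular retinoic acid binding protein, stood at 38.8 and 89.7 CPM, 2.31-fold higher (2.10 to 2.55). Fabp5, which can deliver retinoic acid and fatty acids to the nucleus, stood at 143 and 290 CPM, 2.03-fold higher (1.92 to 2.13). Aldh1a2, which encodes the synthesising enzyme, had a log2 ratio of -1.36. It also stands on the mesothelial list, of which 3 of 11 measured were called lower. Rdh10, which makes the precursor retinaldehyde, stood at 263 and 218 CPM. The median over the 13 measured genes was -0.20.

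Among 37 receptor tyrosine kinase ligand and receptor genes outside the FGF family, 3 were called higher and 2 lower (median -0.25). Kitl, the ligand of the Kit receptor, stood at 28.3 and 73.1 CPM, 2.58-fold higher (2.31 to 2.89). Pdgfa stood at 13.1 and 27.4 CPM, 2.08-fold higher (1.76 to 2.48), and Ngfr, a neurotrophin receptor gene, at 4.76 and 12.7 CPM, 2.66-fold higher (2.02 to 3.54). The neuregulin gene Nrg2 was 3.61-fold lower (2.72 to 4.86) and the neurotrophin receptor gene Ntrk2 2.42-fold lower (2.03 to 2.89). In the Notch pathway, the receptor gene Notch2 (91.1 and 39.3 CPM) and the ligand gene Jag1 (140 and 60.6 CPM) were each 2.32-fold lower. The ligand gene Dll1 was 4.09-fold higher (2.57 to 6.74) from 1.54 CPM in the control, and 13 of 16 Notch genes were neither, among them Notch3 at 106 and 101 CPM. Of 12 measured cytokine and chemokine genes, Il15 was higher (1.88 and 12.4 CPM, 6.61-fold, 4.43 to 10.2). Il1r1, Cx3cl1 and Ackr3, which encodes a scavenger of Cxcl12, were lower by 2.06-fold to 2.56-fold, and Cxcl12 itself stood at 324 and 195 CPM (log2 ratio -0.74). None of 19 Hippo and YAP target genes was called (median -0.18).

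**Figure D2:**
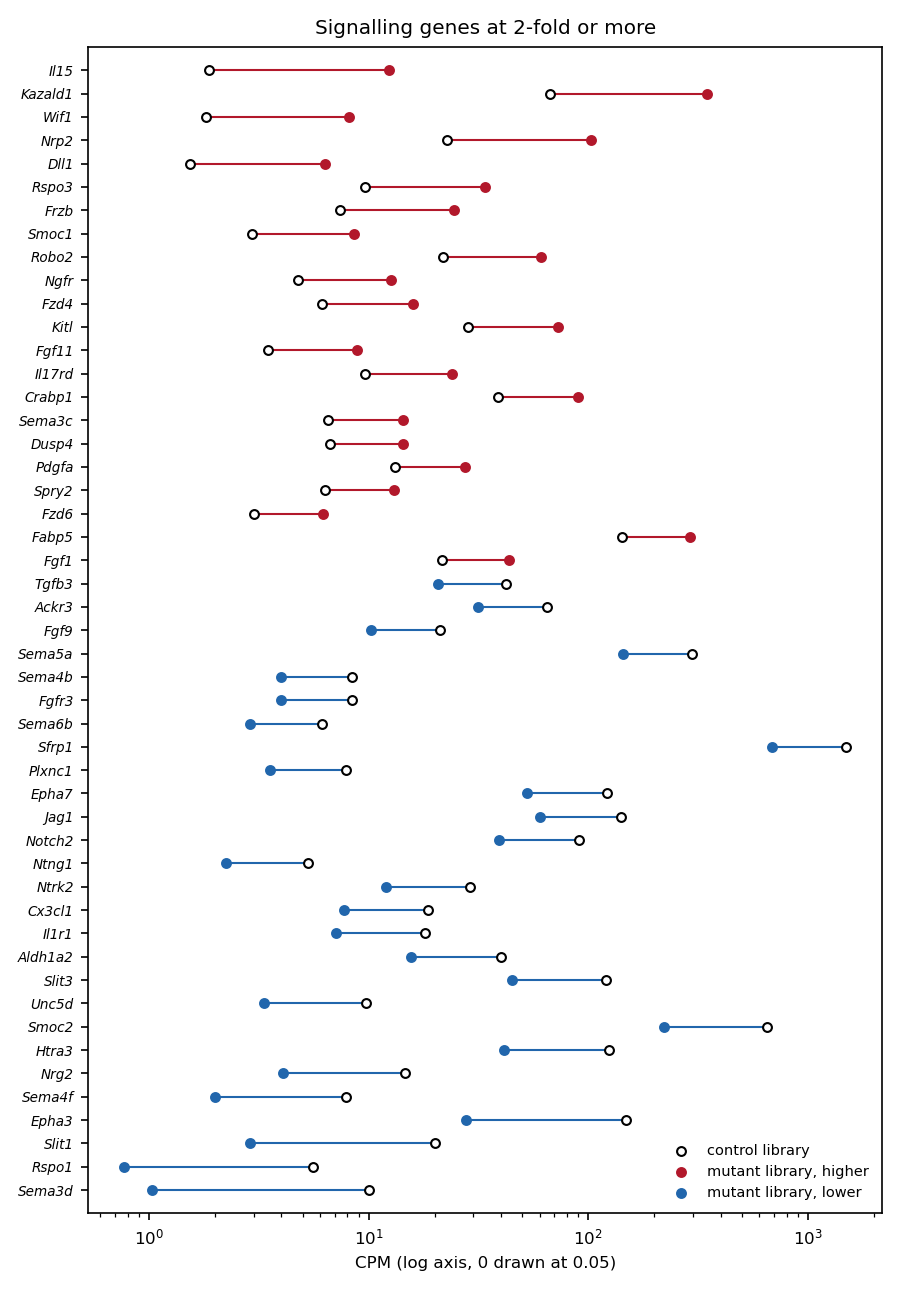
Level of each signalling gene called higher or lower, in control (open circle) and mutant mesenchyme (filled circle), in CPM on a log axis, with 1 library per group. Genes are ordered by ratio; Il15, Kazald1 and Wif1 have the largest ratios above 1, and Sema3d, Rspo1 and Slit1 the largest below 1.

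Guidance genes were called in both directions, more of them lower than higher. Semaphorins, netrins, Slits and ephrins are cues that steer axons, vessels and migrating mesenchymal cells. Of 24 semaphorin, plexin and neuropilin genes, 2 were called higher and 6 lower (median -0.27). Of 33 Slit, netrin and ephrin genes, 1 was called higher and 6 lower (median -0.11). Nrp2, a semaphorin and VEGF co-receptor gene, stood at 22.8 and 102 CPM, 4.49-fold higher (3.99 to 5.07). Robo2, a Slit receptor gene, stood at 21.7 and 60.7 CPM, 2.79-fold higher (2.46 to 3.18). Slit3 stood at 120.4 and 45.0 CPM, 2.68-fold lower (2.45 to 2.93), while Slit2 was at 195 and 171 CPM. The ephrin receptor gene Epha3 stood at 148 and 27.8 CPM, 5.32-fold lower (4.80 to 5.92), and Epha7 at 121 and 52.6 CPM, 2.30-fold lower (2.12 to 2.5). Epha4, another receptor gene of that class, was at 271 and 152 CPM (log2 ratio -0.84). Sema5a stood at 298 and 144 CPM, 2.07-fold lower (1.97 to 2.18).

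Cell adhesion genes included some of the largest ratios in both directions. Cadherins join cells of like kind, and the immunoglobulin and leucine-rich repeat proteins listed here are surface receptors known mainly from nerve cells. Cdh6 stood at 6.10 and 27.5 CPM, 4.50-fold higher (3.58 to 5.71), and Cdh13 at 5.16 and 0.386 CPM, 13.4-fold lower (5.88 to 37.6). The main mesenchymal cadherin genes Cdh11 (669 and 876 CPM) and Cdh2 (184 and 186 CPM) were not called. Of 41 immunoglobulin and leucine-rich adhesion genes, 5 were called higher and 7 lower (median -0.33). Negr1 stood at 1.07 and 16.0 CPM, 14.9-fold higher (9.01 to 26.5), and Cadm1 at 24.9 and 78.5 CPM, 3.15-fold higher (2.80 to 3.55). Opcml, a relative of Negr1, went the other way (34.7 and 8.87 CPM, 3.91-fold lower, 3.23 to 4.75). Lrrn3 stood at 130.2 and 36.6 CPM, 3.56-fold lower (3.24 to 3.91), and Slitrk5 at 155 and 46.6 CPM, 3.33-fold lower (3.06 to 3.62). None of 10 integrin genes was called, with Itgb1 at 571 and 555 CPM.

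Neuronal genes are given here because several adhesion and guidance genes are also used by neurons. Of 10 measured neuron and glial genes 3 were higher and 2 lower, and the sums over 26 genes were 685 and 730 CPM. The glial gene Sox10 had no read in either library. Elavl4, which encodes a neuronal RNA-binding protein, stood at 4.36 and 31.6 CPM, 7.24-fold higher (5.58 to 9.53), and the neurofilament gene Nefl at 73.6 and 176 CPM, 2.40-fold higher (2.24 to 2.57). Stmn2, another neuronal gene, was 17.9-fold lower (7.396 to 56.6) from 5.77 CPM in the control. Neuronal markers thus did not move together, and their part in the adhesion results was not tested.

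Of 43 measured matrix-degrading enzyme and inhibitor genes, 1 was called higher, 7 lower and 35 neither. Their median log2 ratio was -0.36, and -0.21 with no minimum level. The secreted serine protease genes Prss35 and Prss23 stood at 19.5 and 3.86 CPM (5.06-fold lower, 3.82 to 6.80) and at 70.8 and 27.1 CPM (2.61-fold lower, 2.33 to 2.93). Timp3, a metalloproteinase inhibitor bound to matrix, stood at 153 and 68.1 CPM, 2.24-fold lower (2.08 to 2.41). Adamts15, which cleaves proteoglycans, stood at 79.7 and 34.6 CPM, 2.30-fold lower (2.08 to 2.56). Cathepsin K (Ctsk) was 3.36-fold lower (2.55 to 4.46), and the matrix metalloproteinase gene Mmp9 2.40-fold lower (1.79 to 3.26). Leukocytes also express both of these, and leukocyte genes were lower in the mutant pool. The gelatinase gene Mmp2 stood at 360.3 and 389.6 CPM and was not called.

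Matricellular genes split. Postn, which encodes periostin, a matrix protein of fibrous tissues, stood at 48.2 and 155 CPM, 3.22-fold higher (2.97 to 3.51). Ecm1 and Emilin2 were lower by 2.38-fold (1.78 to 3.21) and 2.34-fold (1.66 to 3.33). Of 30 measured elastic fibre and matricellular genes, 2 were higher and 3 lower (median -0.24, but -0.072 at a minimum of 20 CPM), and 1 of those 3, Slc1a3, stands on the list although it encodes a glutamate transporter. Sparc stood at 1145 and 1123 CPM and its relative Sparcl1 at 545 and 297 CPM (log2 ratio -0.88). Proteoglycan genes had a median of -0.18 (0.030 at a minimum of 1 CPM), with Cd44, the hyaluronan receptor gene, 3.71-fold higher (2.48 to 5.70) and the pericyte proteoglycan gene Cspg4 2.29-fold lower (1.91 to 2.75) among 21. None of 20 lysyl oxidase and collagen-modifying genes was called (median -0.12).

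G protein-coupled receptors and the genes counted with them had 11 of 39 members called lower and 3 higher, against 3.5% lower and 1.96% higher over all genes. Those shares are not matched for level, and 25.7% of all genes with a mean below 10 CPM were called. The median log2 ratio of the list was -0.54, which became -0.29 at a minimum of 20 CPM or with none. Ptger3, a prostaglandin E2 receptor gene, stood at 141 and 40.8 CPM, 3.45-fold lower (3.15 to 3.77). Npr3, the clearance receptor gene of natriuretic peptides, stood at 43.8 and 8.42 CPM, 5.20-fold lower (4.30 to 6.32). Adcyap1r1, the receptor gene of the peptide PACAP, stood at 29.3 and 5.79 CPM, 5.06-fold lower (4.03 to 6.43). Ramp1, whose product turns a calcitonin-type receptor toward CGRP, stood at 15.8 and 2.89 CPM, 5.47-fold lower (3.96 to 7.70), and Ramp3, its adrenomedullin-directed relative, at 18.3 and 36.7 CPM. The beta-adrenergic receptor gene Adrb3, among the 15 largest ratios below 1 but on no list, stood at 45.5 and 9.07 CPM, 5.02-fold lower (4.18 to 6.06). The angiotensin receptor gene Agtr1a went the other way, from 0.939 to 6.11 CPM, 6.51-fold higher (3.69 to 12.4). Prokr2, a prokineticin receptor gene on no list, was named after its value was seen: it had no read in the control and stood at 9.58 CPM in the mutant, at least 47.6-fold higher.

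Among 34 ion channel genes, 2 were called higher and 8 lower (median -0.43, but -0.13 at a minimum of 20 CPM). Kcnj8 and Abcc9 together make a potassium channel of pericytes that is gated by ATP. Kcnj8 stood at 154 and 60.8 CPM, 2.53-fold lower (2.34 to 2.73), and Abcc9 at 112 and 27.5 CPM, 4.06-fold lower (3.65 to 4.53). The pericyte gene Rgs5 stood at 79.9 and 27.8 CPM, 2.87-fold lower (2.57 to 3.21). Kcnj8 and Cspg4 stand on the pericyte list too, whose summed level was lower as given above. Whether this share of the channel results came from fewer pericytes was not tested. Channel genes outside that list were lower as well, among them the calcium channel gene Cacna1d (19.2 and 5.72 CPM, 3.36-fold, 2.64 to 4.32) and the potassium channel subunit gene Kcnab1 (28.8 and 9.71 CPM, 2.97-fold, 2.46 to 3.60). The sodium channel gene Scn3a was 3.94-fold higher (2.73 to 5.81) and the glutamate receptor gene Gria3 2.23-fold higher (1.92 to 2.60).

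Of 56 measured transporter genes, 5 were called higher and 7 lower (median -0.18). Slc40a1, which encodes ferroportin, the only known cellular iron exporter, stood at 343 CPM (control) and 1148 CPM (mutant), 3.35-fold higher (3.25 to 3.46). It lies on chromosome 1 from 45908068 to 45926523. Slco3a1, an organic anion transporter gene, stood at 76.1 and 11.6 CPM, 6.57-fold lower (5.61 to 7.73). The glucose transporter gene Slc2a3 stood at 74.9 and 31.3 CPM, 2.40-fold lower (2.15 to 2.67). The zinc and iron importer gene Slc39a8 was 3.95-fold lower (2.96 to 5.34) and the fatty acid transporter gene Slc27a6 5.77-fold lower (3.89 to 8.82).

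**Figure D3:**
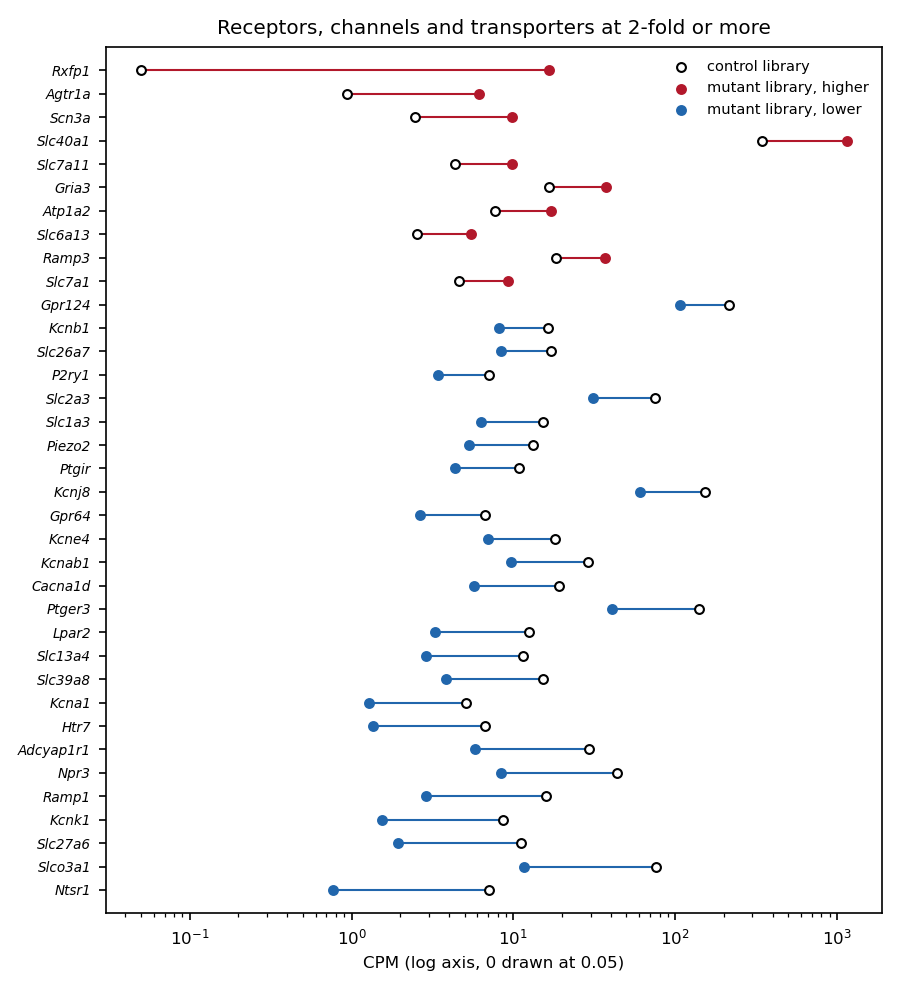
Level of each receptor, channel and transporter gene called higher or lower, in control (open circle) and mutant mesenchyme (filled circle), in CPM on a log axis, with 1 library per group. More genes lie to the left of their control than to the right, and Rxfp1, with no read in the control, is drawn at the lower end of the axis.

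Of 13 measured cartilage and skeletal progenitor genes, 1 was called higher and 3 lower. Their median was -0.55, but -0.30 at a minimum of 1 CPM, -0.25 at 20 CPM and -0.14 with no minimum. The bone factor genes Runx2 (6.84 and 2.25 CPM) and Sp7 (5.23 and 1.61 CPM) were 3.04-fold (2.05 to 4.60) and 3.25-fold lower (2.05 to 5.33), while Col2a1, the cartilage collagen gene, was 2.28-fold higher (1.93 to 2.71). Of 12 tendon and fibroblast genes, 1 was called higher and 4 lower. The median was -0.56, and it lay between -0.90 and -0.95 under the other filters. Cd34, which marks fibroblasts and also endothelium, stood at 7.58 and 0.965 CPM, 7.86-fold lower (4.57 to 14.502), and the opioid precursor gene Penk at 17.0 and 6.30 CPM, 2.70-fold lower (2.13 to 3.45).

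Among 17 genes known from kidney and gonad mesenchyme, 3 were called higher and none lower (median 0.27, but -0.062 with no minimum level). Cited2, a transcriptional coactivator gene, stood at 108 and 199 CPM (log2 ratio 0.88) and Osr1, an early gene of the intermediate mesoderm, at 79.5 and 47.5 CPM (-0.74), both short of the rule. Of 16 limb and body wall patterning genes, 1 was higher and 2 lower. That 1 was Asb4, an imprinted gene for a ubiquitin ligase subunit, at 75.3 and 269 CPM (3.57-fold, 3.34 to 3.81). The remaining 26 measured imprinted genes were neither, among them Mest at 2945 and 2960 CPM (median over the list -0.02).

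Among the largest single differences, several genes belong to none of these groups. Cbln2, which encodes a secreted synapse organiser, stood at 0.537 and 11.3 CPM, 21.0-fold higher (10.4 to 49.3). Limch1, an actin-associated gene, stood at 12.3 and 58.5 CPM, 4.74-fold higher (4.04 to 5.58). The sialyltransferase gene St6galnac5 stood at 4.09 and 24.6 CPM, 6.004-fold higher (4.57 to 8.003). Below the control, the phosphodiesterase gene Pde4c stood at 13.3 and 0.386 CPM, 34.6-fold lower (15.6 to 95.4). Hpgd, which encodes the enzyme that inactivates prostaglandins, stood at 48.3 and 5.92 CPM, 8.16-fold lower (6.56 to 10.3). Ptgir, the prostacyclin receptor gene, was 2.48-fold lower (1.86 to 3.35). At higher levels, named after their values were seen, the membrane protein gene Itm2a stood at 1770.2 and 537 CPM, 3.30-fold lower (3.22 to 3.38), and Lgi2 at 182 and 45.0 CPM, 4.03-fold lower (3.71 to 4.39).

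Core cell processes showed small shifts and few calls. None of 46 G1/S and replication genes was called (median 0.00) and none of 51 G2/M genes (median 0.03), with Top2a at 354 and 319.7 CPM and Mki67 at 248 and 219 CPM. None of 45 primary cilium genes (median -0.08) and none of 24 cholesterol synthesis genes (median 0.17) was called. Of 42 glycolysis and hypoxia response genes, 3 were higher and 2 lower (median 0.06). The called ones included the hypoxia-induced hormone gene Adm (1.01 and 5.85 CPM, 5.82-fold higher, 3.35 to 10.8) and the oxygen sensor gene Egln3 (3.69 and 13.9 CPM, 3.77-fold higher, 2.79 to 5.16). Among 11 interferon response and MHC class I genes (median -0.06, but 0.12 at a minimum of 20 CPM), the viral RNA sensor gene Ifih1 stood at 7.51 and 1.61 CPM, 4.67-fold lower (3.01 to 7.53).

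Ribosomal protein and respiratory chain genes were shifted as whole groups without any call. The 73 measured cytosolic ribosomal protein genes summed to 18113 and 24404 CPM in control and mutant, and 72 of them had ratios above 0 (median log2 ratio 0.50). For the 74 nuclear-encoded respiratory chain genes the sums were 12298 and 15003 CPM, and 72 were above 0 (median 0.47). Both groups have short transcripts, with median lengths of 1100 and 1186 bases, and the ratio varied with transcript length over all genes. The 10710 genes with an annotated length were ranked by it and cut into 5 bins of like size. The median was 0.19 in the bin of the shortest transcripts (up to 2087 bases) and -0.13 in the bin of the longest (from 5465 bases). Without those lists the shortest bin still had a median of 0.18. Relative to genes of like length, the medians were 0.19 for ribosomal protein genes and 0.12 for respiratory chain genes. The part of RNA quality or library preparation in this relation was not tested.

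**Figure D4:**
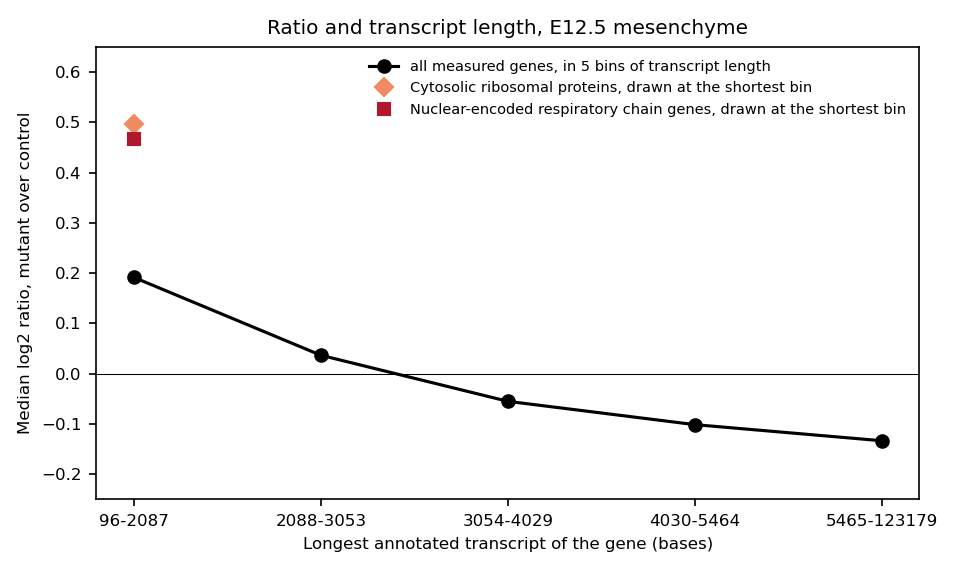
Median log2 ratio of mutant over control for measured genes in 5 bins of transcript length (black line, bases on the x axis), with the medians of the ribosomal protein and respiratory chain genes drawn at the shortest bin. The line descends from 0.19 to -0.13, and both lists, at 0.50 and 0.47, lie above it.

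**Figure D5:**
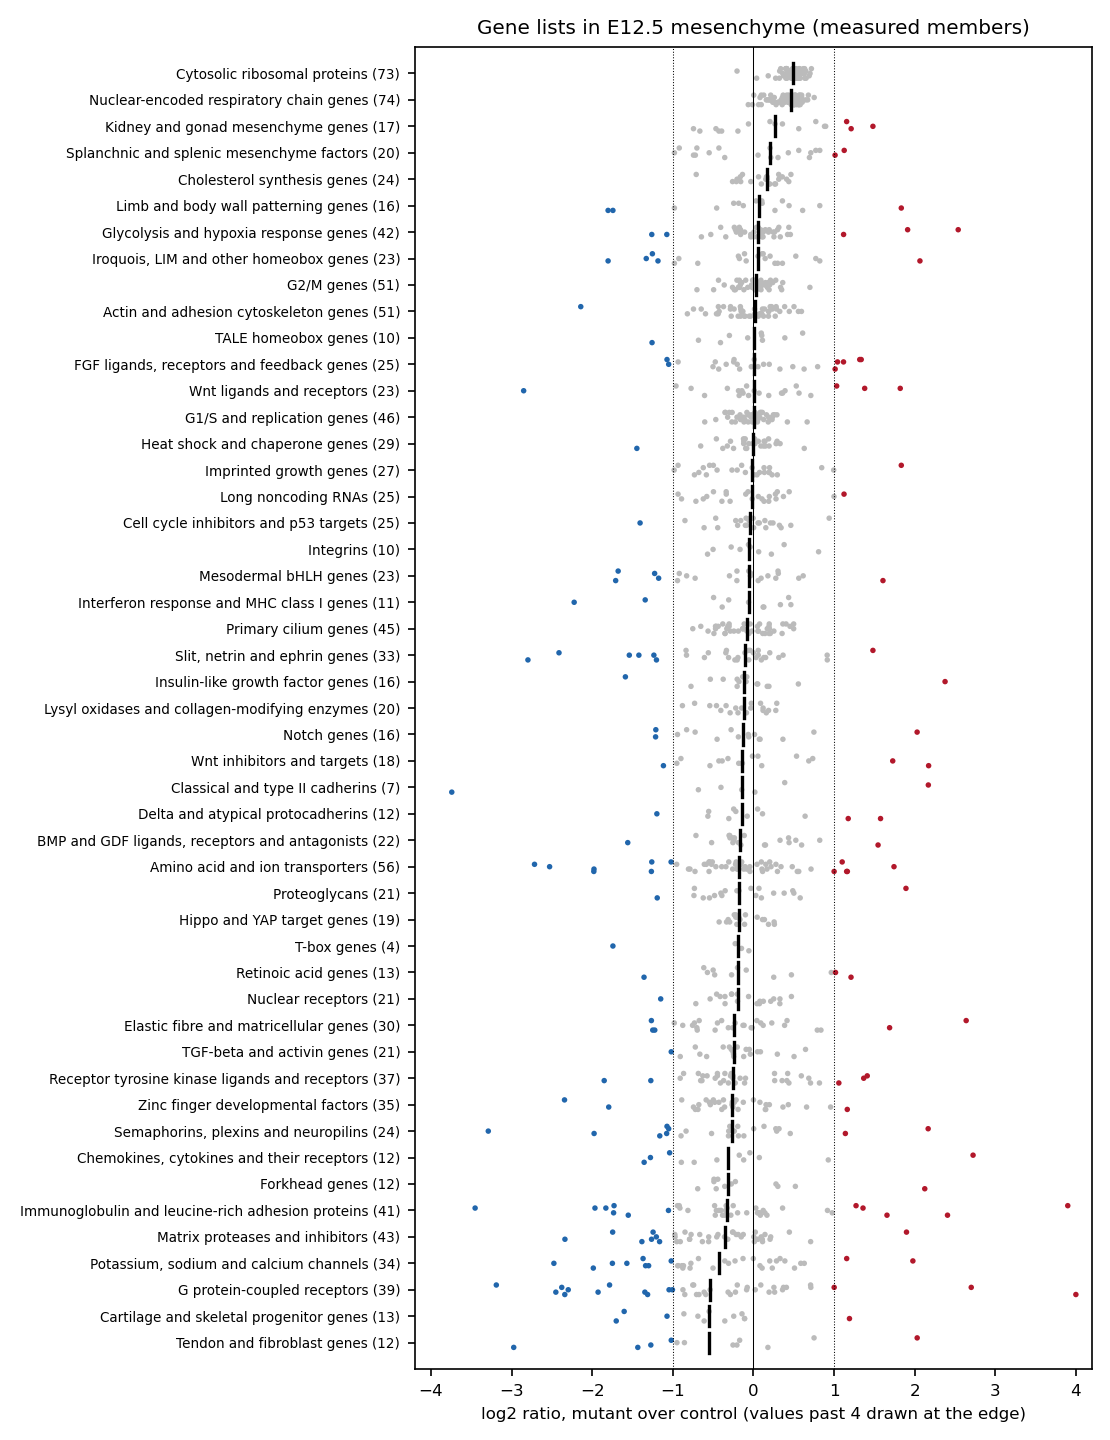
Log2 ratio of mutant over control for the measured members of each gene list (points, coloured where called), with the median of each list as a black bar and the number of measured members in parentheses. Ribosomal protein and respiratory chain genes form narrow clusters above 0, all 4 T-box genes lie below 0, and the other lists have points spread on both sides of 0.

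The same genotypes were compared in E12.5 epithelium, in libraries other than those compared above. Whether both fractions came from the same embryos was not stated in the labels. There, 215 genes were called higher (1.79% of 11991 measured) and 385 lower (3.21%). Of the 219 genes higher in mutant mesenchyme, 162 were measured in epithelium. Of these, 22 were also higher there, which is 10.05% of the 219 and 10.2% of the epithelium list. Of the 392 lower in mesenchyme, 316 were measured in epithelium, and 29 were also lower there (7.398% of the 392 and 7.53% of the epithelium list). Tlx1 was among the shared higher genes (15.9 and 36.7 CPM in epithelium, log2 ratio 1.21), and Pde4c and Cux2 were among the shared lower ones. Others differed less there: in epithelium the log2 ratio of Slc40a1 was 0.15, that of Itm2a 0.16, that of Epha3 -0.29, that of Nrp2 -0.28 and that of Sfrp1 0.61. In E12.5 epithelium, the splanchnic and splenic mesenchyme factors summed to 1025 CPM in control and 1566 CPM in mutant. Of 19 measured there, 16 had ratios above 0 and 3 below (median log2 ratio 0.57). The part of mesenchymal cells carried into the epithelial pools was not tested. With 1 library per group, the difference between the fractions was not tested.

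Genes near Nkx2-5 and Pbx2 were examined separately, since they are inherited with the altered alleles. Within 2 Mb of Nkx2-5, 3 of 76 measured genes were called, all lower, among them the MAP kinase phosphatase gene Dusp1 (219 and 94.4 CPM, 2.32-fold, 2.18 to 2.46). Near Pbx2, 1 of 89 was called, the MHC class II gene H2-DMa (2.48 and 5.72 CPM, 2.31-fold higher, 1.56 to 3.48).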

How the data were processed

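The comparison covered 1 library of mutant and 1 library of control mesenchyme. Raw counts of each gene, by symbol, were deposited by the authors, per the file names after removal of duplicates, which lowers the counts of abundant genes. The submitters' processing notes name Cufflinks 2.2.1, Cuffdiff 2.2.1 and the mm10 build. Which aligner, counter, annotation and strand setting was used is not given in the sources used here. Overlapping genes and genes with near copies are therefore uncertain. The 5 summary lines of each table were left out of the totals. In control and mutant mesenchyme, 8.84% and 8.50% of reads lay in no gene and 13.7% and 16.8% aligned to several places.

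Counts were scaled with TMM factors over all 6 libraries (edgeR 4.0.16, R 4.3.3), and ratios were computed in Python 3.11.15 with numpy 2.4.6, pandas 2.3.3 and scipy 1.17.1. Figures were drawn with matplotlib 3.10.9. Genes at 5 CPM or more in 1 of the 2 libraries were measured. Where a gene had no read, 3 counts were set as its floor in that library (0.201 CPM in the control, 0.193 CPM in the mutant), and its fold is a lower bound. With 1 library per group no p-value was computed. Positions came from GENCODE M21 and promoters from RefSeq. The calculation was tested on simulated data.

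The comparison and its 59 gene lists (2035 genes) were chosen with earlier results of these data known. The genes named were the Pbx genes, up to 6 called members of each list by the interval bound nearer to 1 and up to 4 others with the highest CPM, and the 15 higher and 15 lower genes with the largest fold by that bound at 10 CPM or more. Some genes that this rule names are not reported here. Printed genes were selected from these after their values were seen. Genes outside the rule were also printed with their values seen, and only some are said to be so where they appear. Others outside it include Ptger3, Cadm1, Mmp9, Gria3, Ptgir, Ramp3, Igf1, Fgfr2, Fgf10, Osr1, Isl1 and Lef1. Alternatives were TMM over the 2 libraries, plain CPM, DESeq2 1.42.0 size factors, filters at 1 and 20 CPM or none, 1.5-fold and 4-fold thresholds, no interval condition, thinning of the deeper library, and leaving out markers of other cells. The scale relative to transcript length was added after seeing the data.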

Additional observations from a re-analysis of the deposited data

Results flagged for a closer look

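Several genes on the lists were called in opposite directions in the mesenchyme and in the E12.5 epithelium of the same genotypes. With 1 library per group, the difference between the fractions was not tested. Over all genes, 20 were called in opposite directions. Of the 392 genes lower in mesenchyme, 316 were measured in epithelium and 16 were higher there (4.08% of the 392). Of the 219 higher in mesenchyme, 162 were measured in epithelium and 4 were lower there (1.83% of the 219). Over all genes measured in epithelium, 1.79% were higher and 3.21% lower. The shares of the 392 and the 219 include genes not measured there, so they do not have the same base. The log2 ratio of mutant over control is given first for mesenchyme and then for epithelium. For Alx4, a craniofacial and limb homeobox gene, it was -1.80 and 2.66. The opioid precursor gene Penk had ratios of -1.43 and 1.67, and the cathepsin gene Ctsk of -1.75 and 1.23. For the chemokine gene Cx3cl1 the values were -1.28 and 1.04. The adhesion gene Opcml stood at -1.97 and 1.36, and the sulfate transporter gene Slc13a4 at -1.98 and 1.84. Rspo1 had -2.85 and 1.04, and Zcchc5 had -3.38 and 1.49. Fgf1 was the only one of the 10 listed here that was higher in mesenchyme and lower in epithelium, with 1.01 and -1.12. Some epithelial levels lay near the 5 CPM minimum. In control and mutant epithelium, Alx4 stood at 0.895 and 5.65 CPM, Ctsk at 2.64 and 6.18 CPM and Slc13a4 at 1.84 and 6.57 CPM. Rspo1 was further from it, at 10.2 and 21.0 CPM. The part of mesenchymal cells carried into the epithelial pools in these differences was not tested.

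The embryonic globin gene Hbb-y, a marker of primitive red cells, had a log2 ratio of -6.17 in mesenchyme and 5.82 in epithelium. The part of red cells carried into single pools was not tested.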

How the results depend on the processing

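No paired analysis was possible because each group had 1 library. For the same reason no library could be left out. The number of called genes depended on the filter and the threshold. Genes higher and lower in the mutant numbered 626 and 861 at a minimum of 1 CPM, 72 and 124 at 20 CPM, and 896 and 1155 with no minimum. They numbered 680 and 1012 at 1.5-fold and 52 and 71 at 4-fold. Under the other scalings the counts were 219 and 389 with DESeq2 size factors, 212 and 401 with plain CPM and 225 and 385 with TMM over the 2 libraries. They were 216 and 394 with the deeper library thinned, and 224 and 361 relative to transcript length.

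Under the 3 scalings and relative to transcript length, medians changed sign for the heat shock, Wnt ligand, FGF, G1/S, integrin and cell cycle inhibitor lists alone, all of them close to 0. Medians further from 0 changed sign with the filter. The proteoglycan median became 0.030 at a minimum of 1 CPM, the kidney and gonad median -0.062 with no minimum and the endothelial median -0.20 at 20 CPM, where other genes entered or left the lists. Others that changed sign with the filter were those of protocadherin, cadherin, homeobox, Wnt ligand, limb, noncoding RNA, interferon, G1/S and heat shock genes. The filter also moved the size of medians that kept their sign, by over 1.5 times for the cartilage, tendon, receptor, channel, protease, matricellular and chemokine lists (chemokines -0.31, and -0.74 at 1 CPM). None of the 166 called genes picked by the naming rule was lost under the 3 scalings, and 10 fell under 2-fold relative to transcript length. Called genes outside that rule are not among the 166. Depth limits the genes under 10 CPM most.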
